A study of Mus musculus with 12 samples.

Results

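Lipid binding proteins and the enzymes and coat proteins that fill and empty lipid droplets were examined in bone marrow derived macrophages (BMDMs), as 10 genes chosen by name: *Fabp4*, *Fabp5*, *Plin2*, *Plin3*, *Dgat1*, *Dgat2*, *Lpl*, *Pnpla2*, *Lipe* and *Soat1*. All 10 were among the 12960 genes of the count table and all 10 passed the filter on low counts, which left 10822 genes to test. *Fabp5* was put in this set because a response to PF that depended on AMPKβ1 had already been seen for it in these libraries, so its values are a description with no test in any comparison, and counts of genes that passed a test are given over the other 9. Marrow of WT and AMPKβ1-/- mice was differentiated for 7 days with L929 medium, a source of M-CSF, and the BMDMs were then kept for 6 h either with 10 μM PF-06409577 (PF) or with its vehicle, 0.1% DMSO. PF-06409577 is a small molecule that activates AMPK complexes containing the β1 subunit. Each of the 4 groups (WT with vehicle, WT with PF, AMPKβ1-/- with vehicle, AMPKβ1-/- with PF) had 3 libraries. The AMPKβ1 gene was missing from every cell of the AMPKβ1-/- animals, not from myeloid cells alone, and the strain, age and number of the marrow donors are not given in the sources used here, so the p values measure the spread between libraries, which may be technical.

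A lipid droplet is a store of triglycerides and cholesteryl esters under a coat of perilipins. Triglycerides are made by the DGAT enzymes and cholesteryl esters by SOAT1, and both are broken down again by lipases. Fatty acid binding proteins carry fatty acids through the cytosol, and a macrophage that keeps taking up lipoprotein lipid fills with droplets and becomes a foam cell. AMPK, the kinase that PF activates, shifts cells from lipid synthesis to oxidation, and most of what it is known for here is phosphorylation of enzymes, which counts of RNA do not show.

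The libraries held 8935609 to 14358180 counts, with a median of 10963566.5. *Prkab1*, which encodes the deleted AMPKβ1 subunit, was at 37.3 to 45.3 CPM (counts scaled to library size, with TMM factors) in the WT libraries and at 6.04 to 9.42 CPM in the AMPKβ1-/- libraries. All 10 macrophage markers were present, with summed levels of 25983 to 30785 CPM, whereas 0 of 8 adipocyte markers were in the table, including *Adipoq* and *Plin1*. The macrophage sum hides single markers, since *Lyz2* alone had group means of 14116 to 15505 CPM. Mean *Csf1r* was 7369 CPM in WT with vehicle and 4935 with PF. The means of *Adgre1*, *Cd68*, *Itgam*, *Fcgr1*, *Cd14* and *Spi1* were lower with PF in WT as well. Those of *Mrc1* (49.8 CPM with vehicle and 59.9 with PF), *Mertk* (49.2 and 54.2) and *Lyz2* (14116 and 14906) were higher. In AMPKβ1-/- against WT with vehicle, mean *Cd68* was lower (1676 against 2764 CPM) and mean *Adgre1* higher (2491 against 2093 CPM). Granulocyte (5 of 8 in the table), lymphoid (2 of 8) and dendritic cell (6 of 8) markers summed to at most 1.39, 2.35 and 2.71 CPM. Fibroblast and endothelial markers (7 of 8) summed to 2.58 to 3.78 CPM in WT with vehicle, 1.77 to 2.14 CPM in WT with PF, 4.13 to 10.4 CPM in AMPKβ1-/- with vehicle and 3.05 to 4.39 CPM in AMPKβ1-/- with PF, and the part of these traces in the results was not tested. In RNA from a whole culture, fewer cells of a type and less RNA per cell cannot be told apart.

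One property of the libraries moved with the groups and touches most results. Genes rich in G and C were counted relatively more in WT with vehicle and relatively less in AMPKβ1-/- with PF. The slope on GC content of a gene's log2 level relative to its mean over the libraries, per 10 percentage points, was 0.36 to 0.72 in WT with vehicle, −0.051 to 0.37 in WT with PF, −0.36 to −0.10 in AMPKβ1-/- with vehicle and −0.51 to −0.33 in AMPKβ1-/- with PF. Across 10786 tested genes, which are not independent replicates, Spearman's correlation of the fold change with GC content was −0.71 for PF in WT, −0.45 for PF in AMPKβ1-/- and −0.76 for the genotype. It was −0.50 for the WT response to PF minus the AMPKβ1-/- response. The main results are therefore given as counted and again after each library's trend in GC content and transcript length was removed. Because the slope differed between the groups, this removal can also take away a response to PF or genotype that follows GC content. A trend of the libraries and such a response cannot be told apart here, so neither set of values is the corrected one. The transcripts of *Fabp4* (40.3% GC), *Lpl* (43.5%), *Soat1* (44.1%) and *Fabp5* (45.6%) lie below the median of the tested genes (50.1%), *Plin3* (51.1%) and *Plin2* (52.1%) lie near it, and *Lipe* (55.6%), *Dgat2* (56.3%), *Dgat1* (56.5%) and *Pnpla2* (57.0%) lie above it.

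To compare levels between genes, CPM were divided by the length of the longest annotated transcript in kb. In WT BMDMs with vehicle, *Plin2* was highest at 1040 ± 69.8 CPM per kb (SD, n = 3), followed by *Fabp5* at 323 ± 30.9 and *Lpl* at 236 ± 46.5 CPM per kb, and the libraries of *Fabp5* and *Lpl* overlapped. *Pnpla2* (79.7 ± 5.82), *Plin3* (66.8 ± 5.81), *Soat1* (31.2 ± 2.22) and *Lipe* (26.6 ± 2.57 CPM per kb) followed, and the libraries of *Soat1* and *Lipe* overlapped. *Dgat1* (15.7 ± 1.71) and *Fabp4* (13.4 ± 3.11 CPM per kb) overlapped as well, and *Dgat2* was lowest at 0.340 ± 0.0750 CPM per kb. The order of *Fabp5* and *Lpl* was the other way round in AMPKβ1-/- BMDMs with vehicle, at 195 ± 13.3 and 431 ± 153 CPM per kb, with no overlap between their libraries. *Fabp4* passed *Lipe* in WT with PF (31.6 ± 8.83 against 20.02 ± 2.003 CPM per kb), where the libraries of these genes overlapped.

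**Figure D1:**
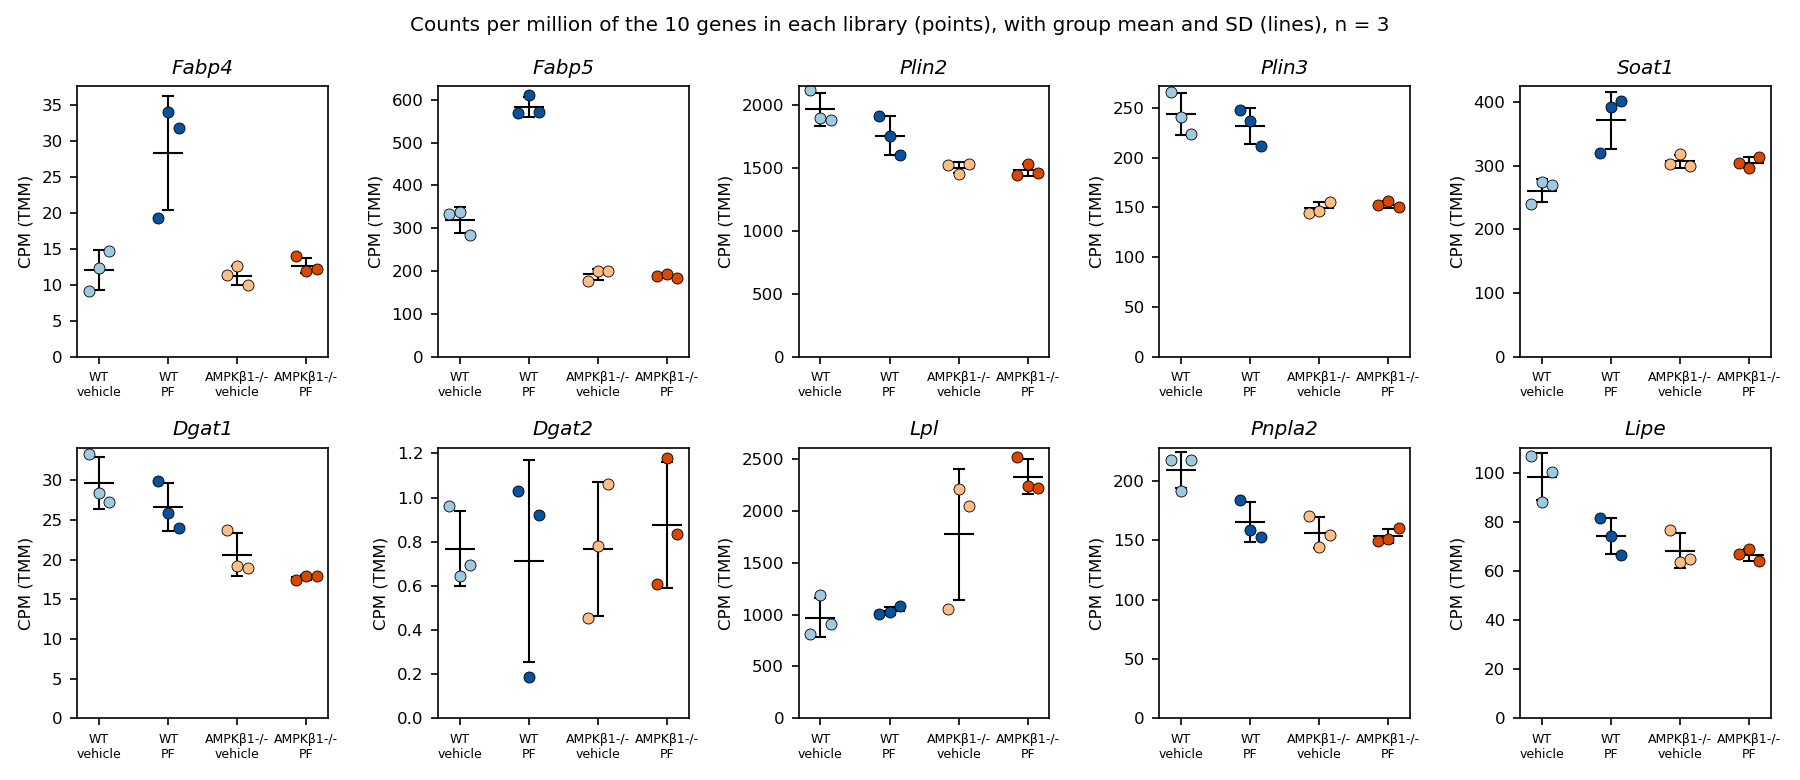
Level of each of the 10 genes in CPM (vertical axes, each starting at 0) in the 4 groups (horizontal axis). Points are the 3 libraries of a group, and lines are the group mean and SD. *Fabp4*, *Fabp5* and *Soat1* were higher in every WT library with PF than in every WT library with vehicle, *Pnpla2* and *Lipe* were lower, and 1 AMPKβ1-/- library with vehicle was low for *Lpl*.

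Promoter windows are shown for 4 of the 5 genes that had one in the table used. By the comparison of PF with vehicle in WT these are *Soat1*, which rose, *Pnpla2* and *Lipe*, whose counts fell, and *Plin2*, the most abundant of the set, which did not pass the test. The window of *Plin3*, which did not pass the test either, is not printed. They are the 250 bases before an annotated start, 5′ to 3′ on the strand of the gene, from RefSeq on GRCm38.p6. The windows are chr1:156474329-156474578 (minus strand) for *Soat1*, chr4:86670060-86670309 (minus strand) for *Plin2*, chr7:141454938-141455187 (plus strand) for *Pnpla2* and chr7:25395988-25396237 (minus strand) for *Lipe*. Capitals mark letters that match a motif on either strand: the CCAAT box (CCAAT, in 33.9% of 32851 RefSeq promoter windows of this length), the GC box (GGGCGG, 32.7%), the nuclear receptor half-site (AGGTCA, 14.02%) and the E-box (CACGTG, 6.02%).
Soat1: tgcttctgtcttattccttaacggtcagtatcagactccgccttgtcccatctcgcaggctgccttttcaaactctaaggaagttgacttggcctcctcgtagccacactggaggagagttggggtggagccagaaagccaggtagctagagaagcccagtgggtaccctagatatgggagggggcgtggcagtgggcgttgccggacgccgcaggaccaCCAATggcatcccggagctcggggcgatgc
Plin2: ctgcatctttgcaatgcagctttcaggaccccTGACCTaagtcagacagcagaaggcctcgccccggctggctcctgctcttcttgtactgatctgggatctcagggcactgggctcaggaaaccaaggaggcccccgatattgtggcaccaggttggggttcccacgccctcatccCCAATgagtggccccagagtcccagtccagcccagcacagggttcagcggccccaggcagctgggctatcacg
Pnpla2: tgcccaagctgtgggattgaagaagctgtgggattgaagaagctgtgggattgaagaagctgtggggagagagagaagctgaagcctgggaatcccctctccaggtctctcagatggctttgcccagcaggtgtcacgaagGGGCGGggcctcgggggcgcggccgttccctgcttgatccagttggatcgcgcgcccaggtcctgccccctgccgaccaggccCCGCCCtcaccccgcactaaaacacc
Lipe: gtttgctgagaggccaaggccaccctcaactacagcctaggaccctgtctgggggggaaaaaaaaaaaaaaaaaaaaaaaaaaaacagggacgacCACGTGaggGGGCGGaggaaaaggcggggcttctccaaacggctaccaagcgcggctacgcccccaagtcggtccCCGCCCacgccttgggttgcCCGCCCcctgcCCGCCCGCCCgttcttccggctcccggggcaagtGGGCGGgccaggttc
The *Soat1* window has a CCAAT box at position −30 from the start. The *Plin2* window has a CCAAT box at −73 and a half-site on the opposite strand at −218. The *Pnpla2* window has 2 GC boxes, at −109 and −26, and the *Lipe* window has 6, of which those at −49 and −45 overlap, beside an E-box at −155. The letters of a TATA box (TATAAA, 12.4% of windows), of a sterol response element core (TCACNCCAC, 1.05%), of a PPAR response element (0.033%) and of an LXR response element (0.015%) were in none of these 4 windows. A second window for *Lipe*, chr7:25390113-25390362, held none of the motifs searched, and both lie within the annotated span of the gene. The 4 windows printed hold 58.8% (*Soat1*), 61.6% (*Plin2*), 63.2% (*Pnpla2*) and 62.8% (*Lipe*) GC. The *Plin3* window (chr17:56290512-56290761, minus strand) has GC boxes at −103, −19 and −14 and a CCAAT box on the opposite strand at −75. GC boxes were therefore not confined to the genes whose counts fell. A match of letters is a description and was not tied to a response.

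The first comparison asks how these transcripts differed between PF and vehicle in WT BMDMs. By edgeR with a Benjamini-Hochberg adjusted p below 0.05, PF changed 4 of the 9 genes: *Fabp4* and *Soat1* rose, and *Pnpla2* and *Lipe* fell. Over all tested genes 15.9% were called, 6.99% higher and 8.95% lower. The median log2 fold change of the 9 genes was −0.072, and that of all tested genes was 0.0048. With a log2 fold change past 0.8 as well, the threshold of the study's methods for a DEG, *Fabp4* alone remained. The share of all tested genes past both thresholds was not counted. The libraries with PF and with vehicle did not overlap for these 4 genes, as for 32.2% of all tested genes. Once the GC and length trend was removed, 2 of the 9 genes were called, beside 6.5% of all genes: *Fabp4* and *Soat1*, both in the same direction as before.

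Among the lipid carriers, *Fabp4* (GRCm38 chr3:10204088-10208576, minus strand) encodes aP2, a fatty acid binding protein of adipocytes and macrophages that PPARγ and modified lipoproteins are known to induce. Its level was 9.08, 12.4 and 14.6 CPM in the WT libraries with vehicle and 19.3, 34.0 and 31.8 CPM in those with PF. Every library with PF was above every library with vehicle, and WT library 1 with PF was the lowest of its group. *Fabp4* rose by 1.23 in log2 units (SE 0.20, adjusted p = 0.00259), 2.35-fold (95% interval 1.74 to 3.17). The rise was 0.69 with the trend removed (adjusted p = 0.0249, the highest of the 21 alternatives run, whose lowest was 6.53e-07).

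*Fabp5* (chr3:10012548-10016607, plus strand) encodes the epidermal fatty acid binding protein, the other main fatty acid carrier of macrophages, and lies 187.481 kb from *Fabp4*. Its level was 334, 339 and 284 CPM with vehicle and 568, 610 and 571 CPM with PF in WT, where the libraries did not overlap. In AMPKβ1-/- BMDMs the levels were 177, 200 and 199 CPM with vehicle and 188, 193 and 183 CPM with PF, and those libraries overlapped. The log2 difference between PF and vehicle was 0.87 in WT (0.55 with the trend removed) and −0.030 in AMPKβ1-/- BMDMs (−0.016 with the trend removed). The response by which it was chosen, WT minus AMPKβ1-/-, was 0.90 (0.56 with the trend removed). Salmon divides reads between similar transcripts, and the sharing of reads between *Fabp5* and its near copies was not analysed here.

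*Soat1* (chr1:156424525-156474331, minus strand) encodes the acyl-CoA:cholesterol acyltransferase of macrophages, which turns free cholesterol into the esters that foam cells store. Its level was 240, 274 and 270 CPM in WT with vehicle and 320, 392 and 402 CPM with PF, and every library with PF was above every library with vehicle. *Soat1* rose by 0.51 in log2 units (SE 0.088, adjusted p = 0.00295), 1.42-fold (95% interval 1.25 to 1.62). The rise was 0.27 with the trend removed (adjusted p = 0.0155), and over the 21 alternatives run the adjusted p spanned 3.39e-06 to 0.0247.

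*Pnpla2* (chr7:141455198-141460743, plus strand) encodes adipose triglyceride lipase (ATGL), which takes the first fatty acid from a stored triglyceride. Its level was 218, 191 and 218 CPM in WT with vehicle and 184, 159 and 153 CPM with PF, and all 3 libraries with PF were lower. The fall in log2 units was −0.34 (SE 0.090, adjusted p = 0.0226), a change of −21.0%. It was −0.050 with the trend removed (adjusted p = 0.659).

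*Lipe* (chr7:25379527-25398710, minus strand) encodes hormone-sensitive lipase, which hydrolyses diglycerides and cholesteryl esters and is a known substrate of AMPK. Its level was 107, 88.4 and 100.5 CPM in WT with vehicle and 81.7, 74.5 and 66.8 CPM with PF, again with no overlap. The fall was −0.41 in log2 units (SE 0.10, adjusted p = 0.0173), a change of −24.7%, and with the trend removed −0.15 (adjusted p = 0.131). The calls of both lipases were lost when any 1 of 4 WT libraries was left out (library 1 or 3 with vehicle, 2 or 3 with PF). The log2 differences were then −0.31 to −0.28 for *Pnpla2* (adjusted p 0.0722 to 0.119) and −0.41 to −0.33 for *Lipe* (adjusted p 0.0526 to 0.0955), while the share of all genes called went from 15.9% to between 3.17% and 6.4%.

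The droplet coat proteins did not pass the test in WT. *Plin2* (chr4:86648386-86670060, minus strand) encodes adipophilin, the main coat protein of macrophage droplets, and its level was 2116, 1892 and 1882 CPM with vehicle and 1909, 1754 and 1599 CPM with PF. The log2 difference was −0.16 (95% interval −0.33 to 0.0050, adjusted p = 0.153). The groups overlapped, and without WT library 1 with PF the difference was −0.23 (adjusted p = 0.0437). *Plin3* (chr17:56277476-56292873, minus strand) encodes TIP47, a coat protein of small new droplets, and its level was 266, 241 and 224 CPM with vehicle and 247, 236 and 211 CPM with PF. The log2 difference was −0.072 (95% interval −0.24 to 0.10, adjusted p = 0.533).

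The enzymes of the last step of triglyceride synthesis did not pass either. *Dgat1* (chr15:76502015-76511953, minus strand) was at 33.3, 28.4 and 27.3 CPM with vehicle and 29.9, 25.9 and 23.99 CPM with PF, overlapping groups with a log2 difference of −0.16 (95% interval −0.41 to 0.10, adjusted p = 0.356). *Dgat2* (chr7:99153658-99182719, minus strand) had only 9, 7 and 7 counts in the libraries with vehicle and 12, 2 and 12 counts with PF. Its interval, −1.12 to 1.00 on the log2 scale around −0.060, holds a halving as well as a doubling, so a difference was not detectable at this depth.

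*Lpl* (chr8:68880491-68907448, plus strand) encodes lipoprotein lipase, the secreted enzyme that frees fatty acids from triglyceride-rich lipoproteins. Its level was 816, 1184 and 911 CPM in WT with vehicle and 1007, 1024 and 1079 CPM with PF. The libraries with PF lay within the range of those with vehicle, and the log2 difference was 0.095 (95% interval −0.38 to 0.57, adjusted p = 0.769).

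**Figure D2:**
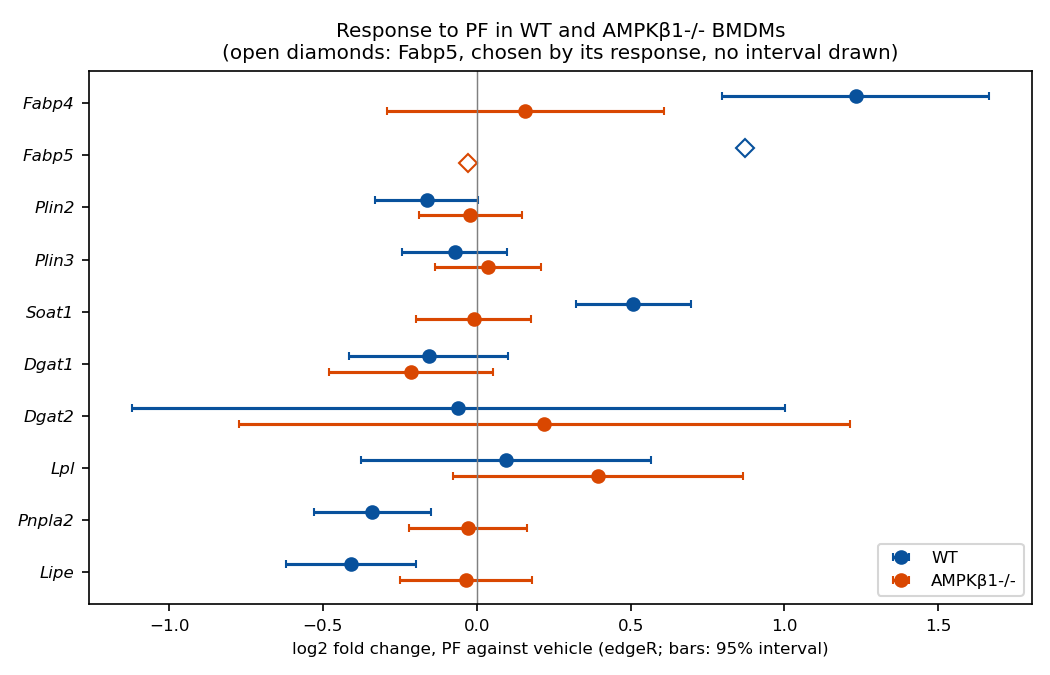
log2 fold change of PF against vehicle (horizontal axis) for each gene (vertical axis) in WT (blue) and AMPKβ1-/- BMDMs (orange), from edgeR with 95% intervals over 3 libraries a group. Open diamonds mark *Fabp5*, drawn without an interval since it was chosen by this response. In WT the intervals of *Fabp4* and *Soat1* lie above 0 and those of *Pnpla2* and *Lipe* below 0, and in AMPKβ1-/- BMDMs every drawn interval includes 0.

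The same comparison in AMPKβ1-/- BMDMs asks what PF did without the β1 subunit. By edgeR 0 of the 9 genes were called, and 0 had an unadjusted p below 0.05, which 539 of all 10822 tested genes had. DESeq2 also called 0 (0 unadjusted), limma-voom called 0 (1 unadjusted, *Lpl*), and over all tested genes edgeR called 0.0554%. *Fabp4* was at 11.3, 12.6 and 9.96 CPM with vehicle and 13.9, 11.9 and 12.2 CPM with PF, overlapping groups with a log2 difference of 0.16 (95% interval −0.29 to 0.61). *Soat1* was at 302, 319 and 299.7 CPM with vehicle and 305, 296 and 314 CPM with PF, a log2 difference of −0.010 (95% interval −0.20 to 0.18). These intervals leave out the rises that the same genes had in WT, and those of *Pnpla2* and *Lipe* below leave out their falls in WT. That is not a test of a difference between the genotypes, which is the interaction given further on. *Pnpla2* (171, 145 and 155 CPM with vehicle, 149, 151 and 160 CPM with PF) differed by −0.029, with a 95% interval of −0.22 to 0.16. *Lipe* (76.7, 63.7 and 65.1 CPM with vehicle, 67.0, 69.2 and 64.2 CPM with PF) differed by −0.035, with a 95% interval of −0.25 to 0.18. The log2 differences of *Plin2* and *Plin3* were −0.021 and 0.036.

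For *Lpl* and *Dgat1* the AMPKβ1-/- libraries with PF and with vehicle did not overlap, which held for 14.5% of all tested genes. *Lpl* was at 1052.5, 2213 and 2050 CPM with vehicle and 2523, 2243 and 2216 CPM with PF, and AMPKβ1-/- library 1 with vehicle stood far below the others. The log2 difference was 0.39 (95% interval −0.078 to 0.86, adjusted p = 0.982), and without that library it was 0.13 (adjusted p = 1). *Dgat1* was at 23.8, 19.2 and 18.98 CPM with vehicle and 17.4, 17.97 and 17.94 CPM with PF, a log2 difference of −0.21 (95% interval −0.48 to 0.053, adjusted p = 0.982). *Dgat2* stayed at 5 to 15 counts in each AMPKβ1-/- library.

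Whether the responses differed between the genotypes was tested as the interaction, WT response minus AMPKβ1-/- response. By edgeR 0 of the 9 genes were called, beside 0.416% of all tested genes. An unadjusted p below 0.05 was found for 4 of the 9 and for 1550 of all 10822 tested genes. *Soat1* had an interaction of 0.52 in log2 units (SE 0.12, adjusted p = 0.0799) and *Fabp4* one of 1.07 (SE 0.29, adjusted p = 0.129). The lipases had interactions of −0.37 (*Lipe*, adjusted p = 0.258) and −0.31 (*Pnpla2*, adjusted p = 0.290). DESeq2 called 2 of the 9, *Fabp4* (adjusted p = 0.0260) and *Soat1* (adjusted p = 0.0107), beside 1.76% of all genes. With limma-voom 0 were called, beside 0.397% of all genes, and 4 had an unadjusted p below 0.05, as had 1575 of all 10822. With the trend removed edgeR called *Soat1* alone, at 0.38 (adjusted p = 0.0435), beside 1.38% of all genes, and *Fabp4* was at 0.75 (adjusted p = 0.192). One library mattered here: without WT library 1 with PF both were called (*Fabp4* 1.29, adjusted p = 0.00943; *Soat1* 0.62, adjusted p = 0.00831), beside 2.6% of all genes, and over all alternatives the adjusted p spanned 0.00943 to 0.346 for *Fabp4* and 0.00831 to 0.238 for *Soat1*. A response called in WT and not in AMPKβ1-/- BMDMs was thus not shown to differ between the genotypes for *Pnpla2* and *Lipe* by any alternative, and for *Fabp4* and *Soat1* only by some.

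**Figure D3:**
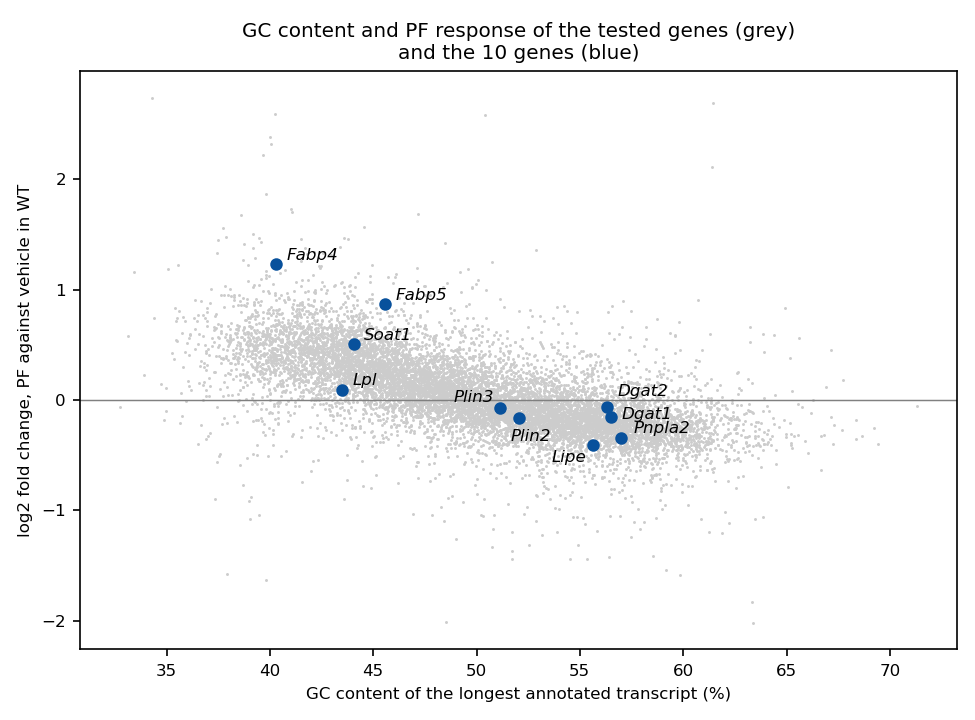
GC content of the longest annotated transcript in percent (horizontal axis) against the log2 fold change of PF against vehicle in WT (vertical axis) for the tested genes (grey) and the 10 genes of the set (blue). *Fabp4*, *Soat1* and *Fabp5*, between 40.3% and 45.6% GC, lie above 0, and *Pnpla2* and *Lipe*, at 57.0% and 55.6%, lie below 0. Over all genes Spearman's correlation was −0.71. With the GC and length trend removed, *Fabp4* was at 0.69, *Fabp5* at 0.55, *Soat1* at 0.27, *Lipe* at −0.15 and *Pnpla2* at −0.050.

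The last comparison asks how the genes differed between AMPKβ1-/- and WT BMDMs without PF. With vehicle, 7 of the 9 genes differed between AMPKβ1-/- and WT BMDMs by edgeR, where 59.7% of all tested genes were called, 29.7% higher and 30% lower. *Lpl* and *Soat1* were higher in AMPKβ1-/- BMDMs, and *Plin3*, *Lipe*, *Dgat1*, *Pnpla2* and *Plin2* were lower. The median log2 fold change of the 9 genes was −0.39, against −0.026 for all tested genes, and with the trend removed these medians were 0.014 and 0.12. Libraries of the genotypes did not overlap for 6 of the 9, as for 62.9% of all tested genes. With the trend removed 3 of the 9 were called, where 36.7% of all genes were, and 1 of them, *Plin3*, had been called in the same direction before.

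*Plin3* was lower in AMPKβ1-/- BMDMs, at 145, 147 and 156 CPM against 266, 241 and 224 CPM in WT. The log2 difference was −0.71 (SE 0.081, adjusted p = 2.59e-05), and −0.44 with the trend removed (adjusted p = 9.78e-05). Its adjusted p stayed at or below 0.000337 under all 21 alternatives, and it was the only one of the 9 genes tested whose adjusted p for the genotype passed under each of them.

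*Plin2*, at 1524, 1452 and 1532 CPM in AMPKβ1-/- BMDMs with vehicle, was below every WT library with vehicle, with a log2 difference of −0.39 (SE 0.079, adjusted p = 0.000804). *Dgat1* differed by −0.52 (SE 0.12, adjusted p = 0.00204), *Pnpla2* by −0.42 (SE 0.090, adjusted p = 0.00113) and *Lipe* by −0.53 (SE 0.10, adjusted p = 0.000490), each without overlap. These 4 differences were 0.014, 0.032, 0.12 and −0.087 with the trend removed, with adjusted p of 0.808, 0.792, 0.113 and 0.251, the highest of each gene over the 21 alternatives run. The lower counts of these 4 genes in AMPKβ1-/- BMDMs therefore depended on whether the trend was kept, and *Plin2*, *Dgat1* and *Pnpla2* changed sign. The median of all tested genes moved as well, from −0.026 as counted to 0.122 with the trend removed. All 4 genes still lay below that median with the trend removed, *Pnpla2* only just, at 0.117. Each of these 4 genes moved further than that median did, and the cause of the changes of sign was not tested.

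*Lpl* was higher in AMPKβ1-/- BMDMs by 0.87 in log2 units (SE 0.22, adjusted p = 0.00463), the only DEG among the 9 in this comparison. How many of all tested genes were DEGs here was not counted. The libraries overlapped because AMPKβ1-/- library 1, at 1052.5 CPM, was below WT library 2, at 1184 CPM, and without the former the difference was 1.13 (adjusted p = 2.34e-05). With the trend removed it was 0.24 (adjusted p = 0.366). *Soat1* was higher by 0.23 (SE 0.088, adjusted p = 0.0312), and with the trend removed it was lower, at −0.54 (adjusted p = 2.73e-05). The *Soat1* call was also lost without WT library 1 (adjusted p = 0.127), AMPKβ1-/- library 2 (0.106) or AMPKβ1-/- library 3 (0.0513) with vehicle.

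*Fabp4* did not pass the test between the genotypes as counted, at −0.086 (95% interval −0.54 to 0.37, adjusted p = 0.746), and with the trend removed it was lower in AMPKβ1-/- BMDMs by −0.92 (adjusted p = 0.00167). *Fabp5* was lower in every AMPKβ1-/- library with vehicle than in every WT library with vehicle, a log2 difference of −0.73 (−0.91 with the trend removed), given as a description. *Dgat2* differed by −0.0093, with an interval of −1.06 to 1.04. This comparison and that of PF with vehicle share the WT libraries with vehicle, so they are not independent.

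**Figure D4:**
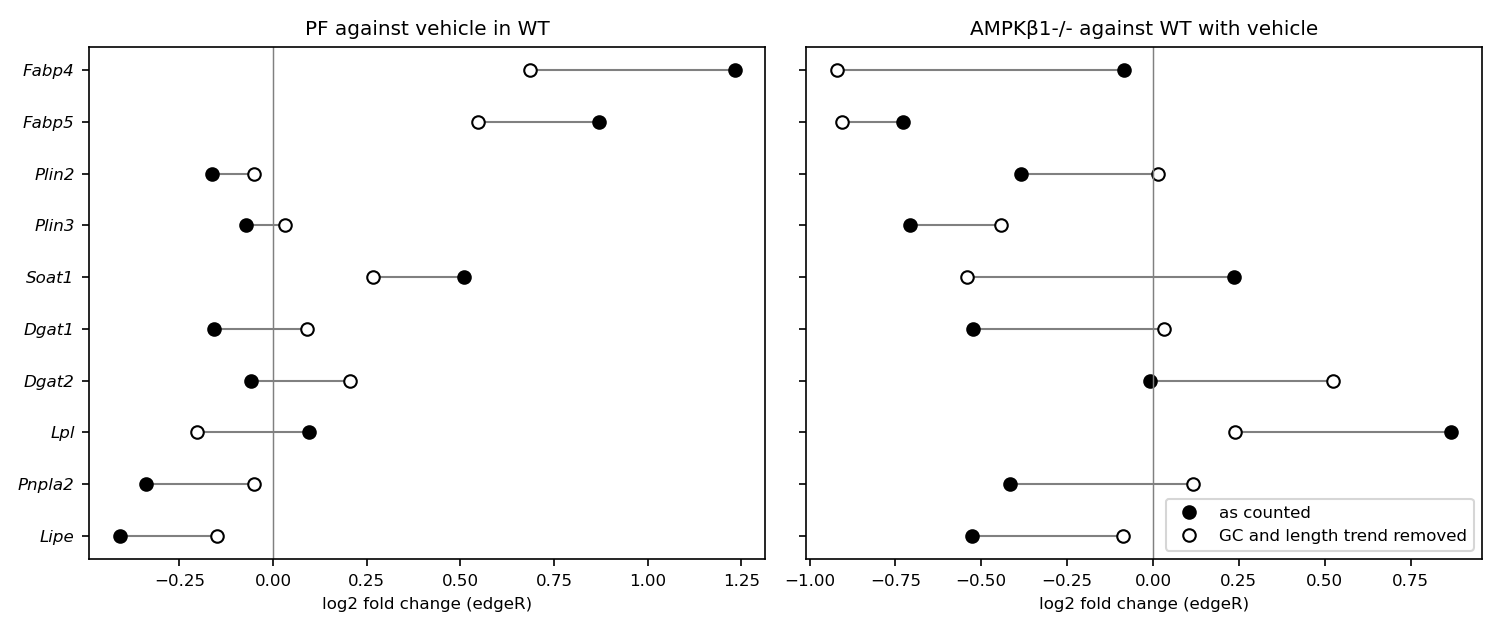
log2 fold change (horizontal axes) of each gene (vertical axis) as counted (filled) and after removal of each library's GC and length trend (open), for PF against vehicle in WT (left) and AMPKβ1-/- against WT with vehicle (right). On the left *Fabp4* moved from 1.23 to 0.69 and *Pnpla2* from −0.34 to −0.050; on the right *Soat1* moved from 0.23 to −0.54 and *Lpl* from 0.87 to 0.24, while *Plin3* stayed below 0.

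The rest of lipid handling was read from 6 further lists, of 84 genes in all, of which 59 were in the table and 55 were tested. In WT PF raised 7 and lowered 10 of the 55 by edgeR, where 6.99% and 8.95% of all genes were called in these directions. The median log2 fold change was 0.030, against 0.0048 for all tested genes. With the trend removed 4 were higher and 1 lower, where 6.5% of all genes were called, and 3 genes were called in both: *Angptl4*, *Nceh1* and *Fabp3*. In AMPKβ1-/- BMDMs PF changed 0 of the 55 by edgeR, by DESeq2 and by limma-voom. By edgeR 5 of the 55 had an unadjusted p below 0.05, as had 539 of all 10822 tested genes. For the interaction edgeR called 0, DESeq2 2 (beside 1.76% of all genes) and limma-voom 0. By edgeR 12 of the 55 had an unadjusted p below 0.05 for it, as had 1550 of all 10822.

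*Angptl4* encodes a secreted inhibitor of lipoprotein lipase and belongs to the list of fatty acid and lipoprotein uptake, of which 3 of 9 tested genes fell and 0 rose with PF in WT. Its level was 8.02, 6.00 and 5.87 CPM with vehicle and 2.31, 2.34 and 3.15 CPM with PF, with no overlap. The log2 fold change was −1.33 (SE 0.20, adjusted p = 0.00129), and −1.23 with the trend removed (adjusted p = 0.000722). In AMPKβ1-/- BMDMs it was at 8.75, 8.15 and 10.6 CPM with vehicle and 8.19, 7.69 and 8.46 CPM with PF, a log2 difference of −0.17 (95% interval −0.52 to 0.19). Its interaction was −1.16 (SE 0.26, adjusted p = 0.0700), and −1.13 with the trend removed (adjusted p = 0.0309). *Lpl* itself did not pass the test in WT with PF, as given above. In the same list *Lmf2*, a homolog of the lipase maturation factor *Lmf1*, fell by 0.40 as counted, and *Lrp1*, a lipoprotein receptor, fell by 0.47. Neither was called with the trend removed, where *Slc27a1*, a fatty acid transport protein, was higher by 0.25 (adjusted p = 0.0224).

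*Nceh1* encodes a hydrolase of cholesteryl esters in macrophages, which frees the cholesterol that *Soat1* esterifies, and was 1 of 7 tested genes of lipolysis and cholesteryl ester turnover to rise with PF in WT, while 1 fell (*Abhd12*, −0.35). Its level was 196, 241 and 208 CPM with vehicle and 306, 327 and 395 CPM with PF, with no overlap. The log2 fold change was 0.67 (SE 0.11, adjusted p = 0.00259), and 0.41 with the trend removed (adjusted p = 0.000317). In AMPKβ1-/- BMDMs it was at 258, 317 and 329 CPM with vehicle and 341, 301 and 327 CPM with PF, a log2 difference of 0.10 (95% interval −0.14 to 0.34). Its interaction was 0.57 (adjusted p = 0.137), and 0.36 with the trend removed (adjusted p = 0.0361). *Soat1* and *Nceh1*, which act in opposite directions on cholesteryl esters, were thus both higher in WT with PF.

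*Fabp3*, the heart fatty acid binding protein, was 1 of 2 of 6 tested genes among the other lipid binding proteins to rise with PF in WT, the other being *Dbi* (0.46), a carrier of acyl-CoA. *Fabp3* was at 5.45, 6.83 and 5.77 CPM with vehicle and 9.43, 7.58 and 9.07 CPM with PF in WT. The log2 fold change was 0.53 (SE 0.17, adjusted p = 0.0419), and 0.59 with the trend removed (adjusted p = 0.0421). In AMPKβ1-/- BMDMs it was at 3.74, 3.85 and 3.18 CPM with vehicle and 5.31, 6.04 and 4.55 CPM with PF, which did not overlap either. That log2 difference was 0.56 (95% interval 0.17 to 0.94, adjusted p = 0.535), and the interaction was −0.028 (95% interval −0.54 to 0.48, adjusted p = 0.966).

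The other lists had calls in WT as counted, and with the trend removed *Srebf2* alone was called in them, higher by 0.19 (adjusted p = 0.0218). Of 14 tested acyl-CoA synthetases and genes of triglyceride synthesis, 2 rose with PF in WT (*Acsl3*, an acyl-CoA synthetase of droplets, by 0.73, and *Agpat5* by 0.49) and 2 fell (*Agpat3*, −0.39, and *Agpat4*, −0.34). Of 9 tested genes of the droplet coat and of droplet formation, 2 rose (*Rab18*, a droplet GTPase, by 0.59, and *Spast* by 0.44) and 1 fell (*Bscl2*, which encodes seipin, −0.30). Of 10 tested nuclear receptors and lipid transcription factors 0 rose and 3 fell, among them *Nr1h3*, which encodes LXRα, at −0.50, and *Rxrb*, at −0.37. None of these 9 named calls remained with the trend removed.

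Between the genotypes with vehicle, 16 of the 55 genes were higher and 20 lower in AMPKβ1-/- BMDMs, where 29.7% and 30% of all genes were. With the trend removed 11 were higher and 10 lower, where 36.7% of all genes were called, and 12 were called both times, 10 of them in the same direction. As counted, the scavenger receptors *Cd36* (1.44) and *Msr1* (1.23) and the acyl-CoA synthetase *Acsl4* (1.44) were higher, and with the trend removed their differences were 0.31, 0.11 and 0.24 and were not called. *Acbd5*, an acyl-CoA binding protein of peroxisomes, was higher by 1.80 (0.79 with the trend removed, adjusted p = 0.000157), and *Acbd3* by 0.68 (0.44, adjusted p = 0.00462). The lipins, phosphatidic acid phosphatases of triglyceride synthesis, moved apart: *Lpin1* was lower, at −0.53 (−0.48, adjusted p = 0.00217) and *Lpin2* higher by 0.39 (0.37, adjusted p = 0.000245). The sign turned for *Rab18*, which was higher as counted (0.96) and lower with the trend removed (−0.24, adjusted p = 0.0311), and for *Agpat5* (0.44 and −0.53, adjusted p = 0.00364). *Cebpb*, a transcription factor of adipogenesis, was higher by 0.53 (1.05, adjusted p = 0.00539), and *Srebf2*, the main transcription factor of cholesterol synthesis, was lower, at −0.51 (−0.13, adjusted p = 0.0349). *Spast* (0.82) and *Nceh1* (0.48) were higher, and *Slc27a4* (−0.55), *Slc27a1* (−0.45), *Agpat2* (−0.50), *Aup1* (−0.62), *Bscl2* (−0.66), *Abhd12* (−0.45) and *Rxrb* (−0.63) lower, as counted only. *Fabp3* was lower as counted (−0.74), which was not called with the trend removed (−0.25, adjusted p = 0.326).

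**Figure D5:**
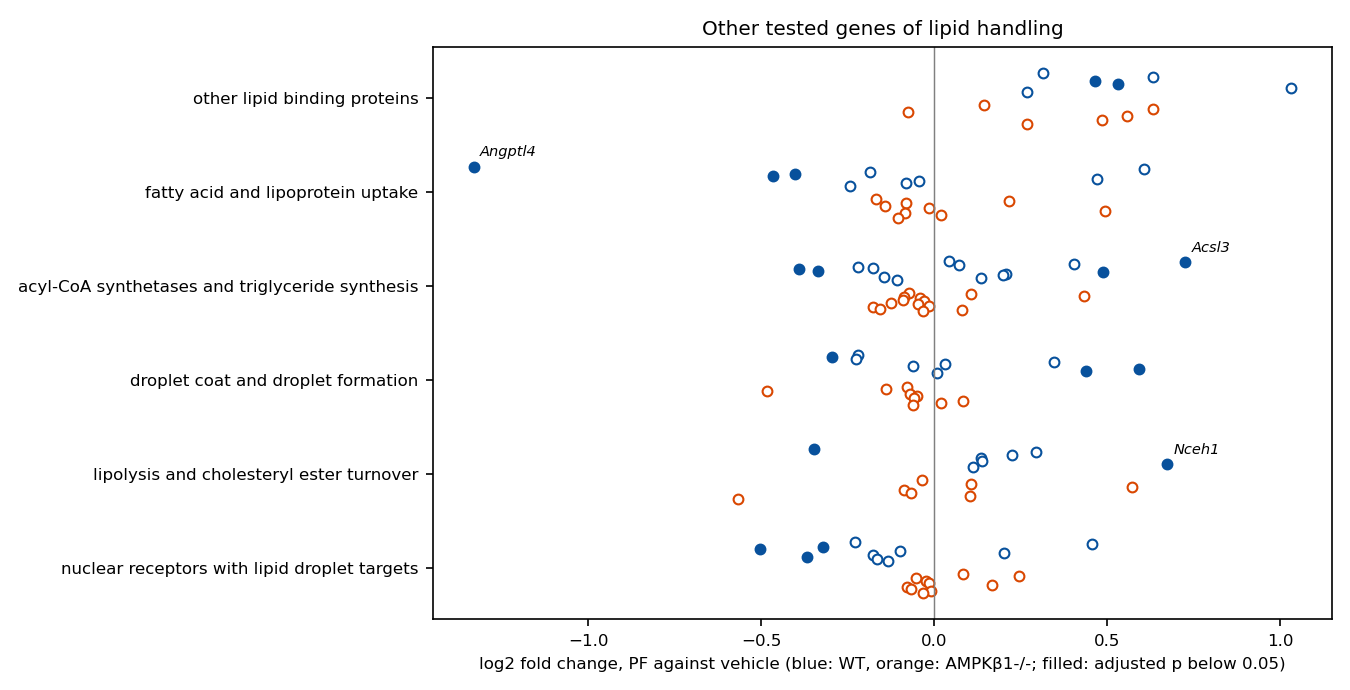
log2 fold change of PF against vehicle (horizontal axis) of the tested genes of 6 further lists of lipid handling (vertical axis), in WT (blue) and AMPKβ1-/- BMDMs (orange), as counted; filled points have an adjusted p below 0.05 by edgeR. Filled points occur in WT only, 7 above 0 and 10 below 0, and *Angptl4* lies lowest at −1.33.

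As a description across the 12 libraries, which share the groups and the trend above, the genes whose log2 CPM followed *Fabp5* most closely were *Rasgef1b*, *Aph1c*, *Gyg*, *Grb2* and *Tmem154*, each with a Pearson correlation of 0.98. Their log2 differences between PF and vehicle in WT were, in that order, 0.23, 0.46, 0.57, 0.14 and 0.76, against 0.87 for *Fabp5*. A correlation over all libraries does not measure the size of the response to PF. Within the set, the correlation with *Fabp5* was 0.83 for *Plin3*, which did not pass the test with PF in WT, and 0.78 for *Fabp4*. Beside *Fabp4*, the genes tested within 500 kb of *Fabp5* on chromosome 3 were *Zfp704*, *Pag1*, *Impa1*, *Zfand1* and *Snx16*. As counted, edgeR called *Impa1* alone of these with PF in WT, at 0.40 (adjusted p = 0.0326), where 6.99% of all genes were called higher. The 4 others were above 0 too: *Snx16* 0.69 (adjusted p = 0.108), *Zfp704* 0.45 (adjusted p = 0.0641), *Zfand1* 0.24 and *Pag1* 0.20. The calls thus do not set *Impa1* apart from them.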

How the data were processed

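RNA of 12 cultures of mouse BMDMs was sequenced, and the authors used Trim Galore on the reads, Salmon on the transcripts and DESeq2 for their tests. The deposited values are counts per gene, whole numbers without normalization. The genome build and the options of Salmon are not given in the sources used here. Column names gave each library its genotype and treatment, and libraries are numbered 1 to 3 by these names. No pair of replicate libraries was identical (chi-square per degree of freedom 2.16 to 17.8).

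Counts were tested in R 4.3.3 with edgeR 4.0.16 (quasi-likelihood, robust, TMM, filterByExpr by group), with the means of the 4 groups fitted jointly to the 12 libraries and Benjamini-Hochberg adjustment over the 10822 genes. SE were derived from fold change and F and are approximate. The values of each library are CPM, and at most 3 counts are allowed by a count of 0, which covers counting error only. DESeq2 1.42.0 and limma 3.58.1 (limma-voom) were alternatives. Positions, length and GC content came from GENCODE M21 on GRCm38 (12703 genes matched by symbol, 194 by another symbol, 63 not), and the trend was fitted in each library with splines (5 degrees of freedom), whose values became an offset. The RefSeq promoter table used held windows for 5 of the 10 genes. Further genes named were, from each list and comparison, up to 2 in each direction with the smallest adjusted p, the neighbours of *Fabp5* and the 5 genes most like it. The genes and lists were chosen with earlier results of these data known.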

Additional observations from a re-analysis of the deposited data

How the results depend on the processing

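The column names number the libraries of each group 1 to 3, and no source used here says that a number marks a shared animal or day. The deviations of same-numbered libraries from their group means correlated at −0.0063 to 0.32 over genes for PF in WT, −0.17 to 0.077 in AMPKβ1-/- and −0.11 to 0.25 between the genotypes, and not every library correlated best with its own number. A fit with the number as a replicate block, chosen after seeing the data, called 4, 0, 0 and 7 of 9 genes (PF in WT, PF in AMPKβ1-/-, interaction, genotype) and 18.3%, 0%, 0.434% and 59.6% of all genes, and turned *Dgat2* between the genotypes to 0.0026. In WT, PF changed 4 of 9 genes (15.9% of all genes), and 2 once the GC and length trend was removed (6.5%), 2 in a fit to the libraries compared only (4%), 1 with the log2 threshold of 0.8, and 2 to 5 with a library left out (3.17% to 29.7%). The interaction was called for 0 (0.416% of all genes), for 2 by DESeq2 (1.76%), 1 with the trend removed (1.38%) and 0 to 2 with a library left out (0.0458% to 2.6%, and 2 without WT library 1 with PF). The genotype called 7 (59.7% of all genes), 3 with the trend removed (36.7%) and 1 with the threshold of 0.8. For the threshold of 0.8 the share of all genes was not counted in any comparison. In AMPKβ1-/- BMDMs PF called 0 under every alternative run. The cause of these changes was not tested.

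Signs that turned, as log2 fold changes, belonged to values not called except those of *Plin2*, *Dgat1*, *Pnpla2* and *Soat1* between the genotypes. With the trend removed these were, for PF in WT, *Plin3* 0.031, *Dgat1* 0.090, *Dgat2* 0.21 and *Lpl* −0.20; for PF in AMPKβ1-/-, *Fabp4* −0.061, *Plin2* 0.045, *Pnpla2* 0.055 and *Lipe* 0.054; and between the genotypes *Plin2* 0.014, *Dgat1* 0.032, *Dgat2* 0.52, *Pnpla2* 0.12 and *Soat1* −0.54. With library size alone, which moved the median of all genes between the genotypes to 0.18 (0.12 with the trend removed), they were *Plin3* 0.0085 and *Dgat2* 0.019 in WT, *Soat1* 0.0085 in AMPKβ1-/-, and *Fabp4* 0.12 and *Dgat2* 0.20 between the genotypes. With DESeq2's size factors in edgeR they were *Soat1* 0.0015 and *Dgat2* 0.0081, and with DESeq2 0.0015 and 0.011. With a library left out, *Dgat2* ranged from −0.38 to 0.35 and *Lpl* from −0.015 to 0.26 for PF in WT, and *Dgat2* from −0.070 to 0.46, *Pnpla2* from −0.085 to 0.037, *Lipe* from −0.087 to 0.054 and *Soat1* from −0.031 to 0.019 in AMPKβ1-/-. In the interaction *Dgat1* ranged from −0.055 to 0.15 and *Dgat2* from −0.60 to 0.13, and between the genotypes *Fabp4* from −0.25 to 0.075 and *Dgat2* from −0.25 to 0.23. *Dgat2*, at 2 to 15 counts a library, is limited by depth.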
